A study of Mus musculus with 12 samples.

Results

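Enzymes and carriers that build, use and break down ceramide and the other sphingolipids were described here as 33 genes, chosen by symbol from the 56980 genes of a bulk RNA-seq count table. They covered ceramide synthesis (8 genes) with its Ormdl regulators (3), sphingomyelin turnover (5), other uses of ceramide (3), sphingosine phosphate (5), lysosomal glycolipid breakdown (6) and other glycolipid steps (3). Of the 33, 32 passed the filter on low counts and were tested, and Smpd3 did not.

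RNA came from CD8+ cells sorted from tumours of wild-type C57BL/6J mice, in 4 groups of 3 libraries: asGM1-positive cells of Flt3L Panc02 tumours, asGM1-negative cells of Flt3L Panc02 tumours, asGM1-positive cells of Panc02 tumours and asGM1-negative cells of Panc02 tumours. Panc02 is a mouse pancreatic cancer cell line, and Flt3L, a growth factor of dendritic cells, was expressed by the tumour cells themselves. In all groups the sort took DAPI-negative, CD45.2-positive, CD8-positive cells, with no T cell receptor marker listed, and then split them by surface staining for the glycosphingolipid asialo-GM1 (asGM1). The labels state no mouse age, time of harvest or pooling of animals. Nothing in the labels says that replicates are separate animals, so p-values measure the spread between these samples, which may be technical.

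Sphingolipid synthesis starts when serine palmitoyltransferase joins serine to a fatty acid, and ceramide synthases and a desaturase then make ceramide. Ceramide is turned into sphingomyelin or into glycolipids such as asGM1, and lysosomal hydrolases with their helper proteins take these apart again. Ceramidases release sphingosine, which kinases phosphorylate to sphingosine 1-phosphate, the lipid whose gradient guides T cells out of tissue.

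Library totals lay between 98663008 and 102896605 deposited counts, and 1 sequenced fragment appeared to be worth about 2.71 of them. Levels below are CPM (counts scaled to library size) with edgeR's TMM factors, listed in the order of replicates 1, 2 and 3. Summed over 7 CD8 T cell markers, levels were 11834 to 14943 CPM in Flt3L Panc02 asGM1-positive, 9054 to 10394 CPM in Flt3L Panc02 asGM1-negative, 8766 to 10411 CPM in Panc02 asGM1-positive and 8970 to 11424 CPM in Panc02 asGM1-negative libraries. Markers of other cell types were present too and differed between groups. The 10 plasmacytoid dendritic cell markers summed to 305 to 330 CPM in Flt3L Panc02 asGM1-positive, 1085 to 1205 CPM in Flt3L Panc02 asGM1-negative, 272 to 292 CPM in Panc02 asGM1-positive and 471 to 489 CPM in Panc02 asGM1-negative libraries. Bst2, Pacsin1 and Runx2 averaged 108.7, 102.4 and 92.8 CPM in Flt3L Panc02 asGM1-positive and 112.0, 35.6 and 117.6 CPM in Panc02 asGM1-positive libraries. They held most of both sums. Siglech averaged 2.83 CPM in Flt3L Panc02 asGM1-positive and 268.4 CPM in Flt3L Panc02 asGM1-negative libraries. The median log2 fold change between the gates over the 10 was -5.77 in Flt3L Panc02 and -4.53 in Panc02 tumours. The 15 macrophage and monocyte markers summed to 695 to 948 CPM in Flt3L Panc02 asGM1-positive, 385 to 620 CPM in Flt3L Panc02 asGM1-negative, 897 to 3286 CPM in Panc02 asGM1-positive and 785 to 1292 CPM in Panc02 asGM1-negative libraries. Of those 15 markers Marco was at 0 in 11 of the 12 libraries, and of 5 B cell markers Pax5 was at 0 in 11 as well. Another of the 5, Cd79b, had 5.04 to 35.7 CPM over the 12 libraries and was lower in asGM1-positive cells. Its log2 fold change was -1.53 in Flt3L Panc02 (edgeR, adjusted p = 0.00126) and -1.44 in Panc02 tumours (edgeR, adjusted p = 0.00529).

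Promoter windows of 250 bases before the transcript start were found for 31 of the 33 genes (47 windows, RefSeq, GRCm38.p6), and none for Smpd3 and Asah1. CACGTG, the core motif of E-box factors, was searched on both strands and stood in 8 of the 31 genes (25.8%), against 6.86% of all genes with a window. The 8 were Arsa, Cers2, Cers6, Degs1, Gla, Sgms2, Smpd2 and Sphk1. A gene with more windows has more places for a match. Counted by window, CACGTG stood in 9 of the 47 (19.1%), against 6.02% of all windows. The longer TCACGTGA, which contains CACGTG and is the form bound by lysosomal gene regulators such as TFEB, stood in Gla alone of the members (0.907% of all genes). GGGCGG, the GC box, was searched after member values had been seen and stood on either strand in 23 of 31 genes (74.2%), against 35.4% of all genes. By window it stood in 26 of the 47 (55.3%), against 32.7% of all windows. A match is a description of these letters only. Shown are Gla, as the 1 member with the long motif, and Degs1 and Smpd1, chosen after their values were seen as members that differed between tumour types. Capitals mark TCACGTGA and 1 GGGCGG in Gla, CACGTG in Degs1, and GGGCGG or its reverse complement in Smpd1, and each is printed 5′ to 3′ on the gene's strand.
Gla (chrX:134601006-134601255, minus strand): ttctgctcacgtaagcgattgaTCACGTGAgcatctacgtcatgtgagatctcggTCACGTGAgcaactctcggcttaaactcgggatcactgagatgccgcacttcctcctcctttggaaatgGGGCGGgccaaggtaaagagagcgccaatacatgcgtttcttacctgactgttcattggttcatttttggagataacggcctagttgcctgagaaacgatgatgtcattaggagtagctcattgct
Degs1 (chr1:182282196-182282445, minus strand): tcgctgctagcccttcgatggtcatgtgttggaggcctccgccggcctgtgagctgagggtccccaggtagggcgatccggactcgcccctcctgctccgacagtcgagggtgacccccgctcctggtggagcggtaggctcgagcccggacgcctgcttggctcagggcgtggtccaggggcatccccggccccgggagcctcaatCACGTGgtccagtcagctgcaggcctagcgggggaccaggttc
Smpd1 (chr7:105554110-105554359, plus strand): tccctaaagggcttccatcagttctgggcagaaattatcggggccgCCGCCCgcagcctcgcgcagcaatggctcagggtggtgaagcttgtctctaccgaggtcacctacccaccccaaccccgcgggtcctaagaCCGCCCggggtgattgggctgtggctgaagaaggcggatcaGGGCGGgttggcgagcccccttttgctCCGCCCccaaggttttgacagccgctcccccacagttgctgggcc
In Gla the motif began 228 and 195 bases before the start, and in Degs1 it began 43 bases before it.

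Per kilobase of exon (the union of GENCODE exons), Psap and Gltp were the most abundant members, at mean levels of 174.7 and 173 CPM per kb over the 12 libraries. Psap encodes prosaposin, the precursor of the saposins that help lysosomal hydrolases reach their lipids, and Gltp encodes a glycolipid transfer protein. Gm2a (71.7 CPM per kb), Cers2 (69.1) and Degs1 (67.6) followed. At the low end Sgms2 averaged 0.083 CPM per kb among tested members. The ceramide synthase Cers2 (very long acyl chains) and the serine palmitoyltransferase subunit Sptlc2 varied least, with 1.21-fold and 1.23-fold between the highest and the lowest library. Among members above 0 in every library Sphk1, a sphingosine kinase, varied most, 5.83-fold, at 0.509 to 2.97 CPM.

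**Figure D1:**
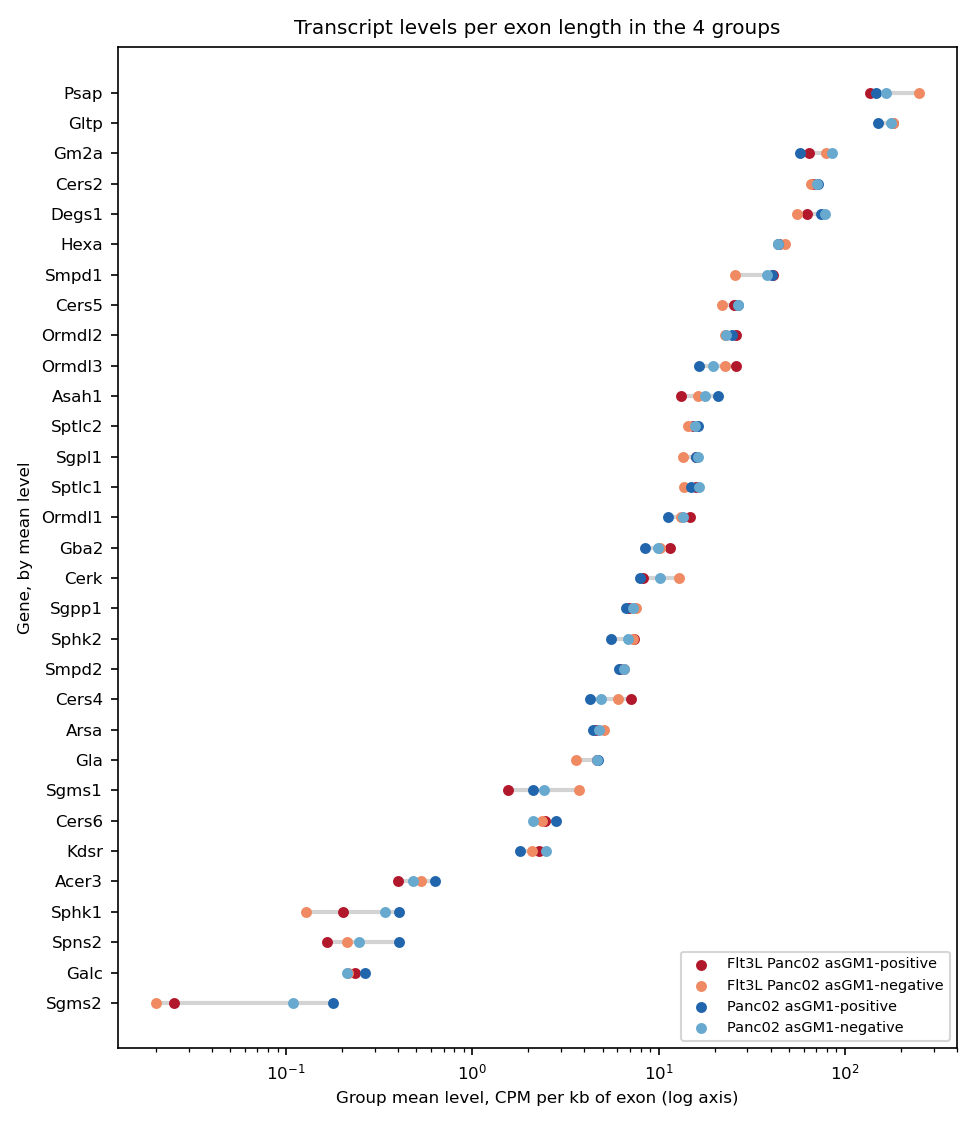
Mean level of the members per kilobase of exon (CPM per kb, log axis) in the 4 groups. Psap and Gltp stand highest and Sgms2 lowest of the members drawn; Smpd3 and A4galt are left out.

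In Flt3L Panc02 tumours 1 of the 4 tested sphingomyelin genes was called higher in asGM1-positive cells, 1 was called lower and 2 were not called. The uncalled genes were Smpd2 (log2 fold change -0.07, edgeR adjusted p = 0.759) and Sgms2 (0.32, adjusted p = 0.868). Sgms1, the main Golgi sphingomyelin synthase, was lower in asGM1-positive cells, and Smpd1, the lysosomal acid sphingomyelinase, was higher, while Psap was lower. These 3 of 32 members (1 higher, 2 lower, 9.38%) were called at an adjusted p under 0.05, a share near the 8.59% called of all 20411 genes tested (2.77% higher, 5.83% lower). The median log2 fold change was 0.11 over members and -0.01 over all genes. Groups did not overlap for 7 members (4 higher, 3 lower, 21.9%), against 28.7% of all genes (11.4% higher, 17.3% lower).

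Sgms1 had 15.4, 18.7 and 15.1 CPM in Flt3L Panc02 asGM1-positive libraries, against 34.5, 45.2 and 38.9 CPM in Flt3L Panc02 asGM1-negative libraries. Every asGM1-positive library was below every asGM1-negative one. The log2 fold change was -1.27 ± 0.22 (SE, n = 3 each; edgeR quasi-likelihood test, adjusted p = 0.00536). Smpd1 had 157.6, 127.5 and 124.6 CPM in asGM1-positive libraries, against 86.8, 84.7 and 86.6 CPM in asGM1-negative libraries. Here the asGM1-positive libraries were all higher, and those of the asGM1-negative group lay close together. Its log2 fold change was 0.67 ± 0.12 (SE; edgeR, adjusted p = 0.00611). Both calls held without any 1 of the 6 libraries.

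Psap had 355.2, 419.7 and 349.3 CPM in Flt3L Panc02 asGM1-positive libraries, against 563.8, 793.7 and 697.0 CPM in asGM1-negative libraries. The groups did not overlap, and the log2 fold change was -0.87 ± 0.20 (SE; edgeR, adjusted p = 0.0201). The call ended without asGM1-negative replicate 2 (adjusted p = 0.0819) or 3 (0.0569) and without asGM1-positive replicate 1 (0.0665) or 3 (0.0736). Plasmacytoid dendritic cell markers were also lower in the asGM1-positive libraries, 7 of 10 of them called lower. So were 6 of 8 conventional dendritic cell markers, whose sums were 18.2 to 27.4 CPM in asGM1-positive and 109 to 120 CPM in asGM1-negative libraries, and 3 of 4 markers of CD4 and regulatory T cells (31.0 to 39.2 CPM in asGM1-positive and 65.8 to 97.9 CPM in asGM1-negative libraries). Of the 7 CD8 T cell markers 2 were called higher. Their part in these results was not tested, and in bulk samples fewer cells of a type and less RNA per cell cannot be told apart.

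All 8 ceramide synthesis genes had positive log2 fold changes in this comparison, with a median of 0.16, but none was called. Of all 20411 genes tested 9987 were positive. In Panc02 tumours 3 of the 8 were positive and 5 negative, with a median of -0.035. Libraries did not overlap for Sptlc1 (log2 fold change 0.20, edgeR adjusted p = 0.189), Sptlc2 (0.10, adjusted p = 0.475) and Cers4 (0.23, adjusted p = 0.353). That is 37.5% of the 8, against 28.7% of all genes. Sptlc1 and Sptlc2 are subunits of serine palmitoyltransferase. Of the ceramide-using members, the alkaline ceramidase gene Acer3 was lower in every asGM1-positive library, at a log2 fold change of -0.42 ± 0.18 (SE; edgeR, adjusted p = 0.177). Cerk, the ceramide kinase, had 35.6, 44.2 and 39.3 CPM in asGM1-positive libraries, against 42.1, 85.4 and 59.1 CPM in asGM1-negative libraries, which overlap.

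**Figure D2:**
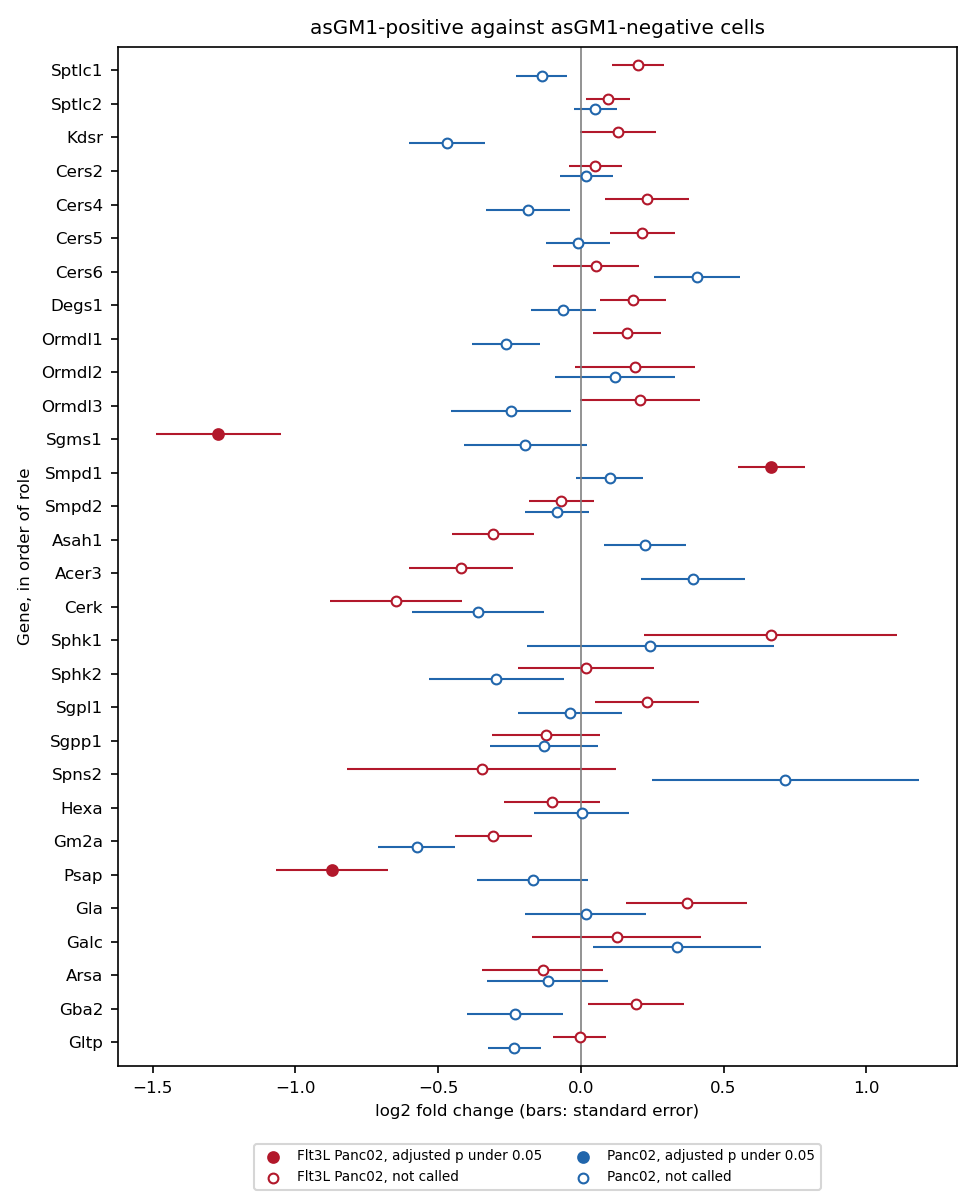
Log2 fold change of asGM1-positive over asGM1-negative cells for the members in Flt3L Panc02 and Panc02 tumours, with bars of 1 SE (n = 3 libraries a group). Filled points were called: Sgms1 (-1.27), Psap (-0.87) and Smpd1 (0.67), all in Flt3L Panc02; A4galt, Smpd3 and Sgms2 are left out.

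In Panc02 tumours no member was called between the gates (0 of 32, against 0.892% of all genes, 0.049% higher and 0.843% lower). An unadjusted edgeR p under 0.05 was found for 5 of the 32, against 9.99% of all genes. DESeq2 called 2 members, Gm2a and Kdsr, and 598 of all genes. Gm2a encodes the GM2 activator, which presents gangliosides to hexosaminidase. It had 241.2, 214.8 and 257.2 CPM in Panc02 asGM1-positive libraries, against 312.2, 358.5 and 391.6 CPM in Panc02 asGM1-negative libraries. The libraries did not overlap, at a log2 fold change of -0.57 ± 0.13 (SE, n = 3 each; edgeR, adjusted p = 0.0873). Kdsr, the reductase of the second step of synthesis, had 15.4, 15.1 and 13.6 CPM in asGM1-positive libraries, against 23.2, 19.6 and 18.1 CPM in asGM1-negative libraries. No library overlapped, with a log2 fold change of -0.47 ± 0.13 (SE; edgeR, adjusted p = 0.191). In all, 6 members did not overlap (1 higher, 5 lower, 18.8%), against 17.6% of all genes (8.67% higher, 8.92% lower).

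For Sgms1 the Panc02 libraries overlapped, with 29.2, 23.1 and 14.8 CPM in asGM1-positive and 29.7, 23.4 and 23.7 CPM in asGM1-negative libraries (log2 fold change -0.19 ± 0.22, SE; edgeR, adjusted p = 0.885). Smpd1 had 117.1, 145.6 and 146.1 CPM in Panc02 asGM1-positive and 120.5, 135.9 and 124.5 CPM in asGM1-negative libraries, which also overlapped (0.10, adjusted p = 0.892). Psap had 456.6, 457.6 and 297.8 CPM in Panc02 asGM1-positive and 532.2, 472.4 and 357.4 CPM in asGM1-negative libraries (-0.17, adjusted p = 0.894).

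The difference of the gate effect between tumour types was tested as an interaction, Flt3L Panc02 minus Panc02. No member was called (0 of 32, against 0.367% of all genes, 0.0343% higher and 0.333% lower). An unadjusted edgeR p under 0.05 was found for 9 of the 32, against 14.8% of all genes. A4galt, with a group at 0, is among the 9. DESeq2 called Kdsr, Sgms1 and Smpd1, and 862 of all genes. The interaction on the log2 scale was -1.08 ± 0.31 for Sgms1 (SE; edgeR, adjusted p = 0.151) and 0.56 ± 0.17 for Smpd1 (adjusted p = 0.165). Without Panc02 asGM1-positive replicate 3 the Sgms1 interaction was called, at -1.28 (adjusted p = 0.0254).

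Averaged over both tumour types, 5 of 32 members were called between the gates (2 higher, 3 lower, 15.6%), against 6.19% of all genes (1.68% higher, 4.51% lower). Sgms1 (log2 fold change -0.73 ± 0.15, SE; edgeR, adjusted p = 0.0149), Gm2a (-0.44 ± 0.10, adjusted p = 0.018) and Psap (-0.52 ± 0.14, adjusted p = 0.0475) were lower in asGM1-positive cells. Smpd1 was higher (0.38 ± 0.08, adjusted p = 0.018), as was A4galt (adjusted p = 0.0493), for which no fold is given because a group was at 0. A4galt is counted in the 5 and in the 15.6% but, as described below, adds nothing to that share. In Flt3L Panc02 tumours Gm2a had 306.6, 250.2 and 237.7 CPM in asGM1-positive libraries, against 365.3, 284.9 and 332.9 CPM in asGM1-negative libraries, with overlap.

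Several of these averaged calls rested on single libraries. Gm2a lost its call without Panc02 asGM1-negative replicate 3 (adjusted p = 0.0505) or Panc02 asGM1-positive replicate 2 (0.0566). Smpd1 lost it without Panc02 asGM1-negative replicate 1 (0.0511) or Panc02 asGM1-positive replicate 2 (0.0562). Psap kept it only without Panc02 asGM1-negative replicate 3, Panc02 asGM1-positive replicate 1 or Flt3L Panc02 asGM1-negative replicate 1, and had adjusted p = 0.061 to 0.119 without each of the others. Sgms1 was called in every such run, and A4galt only without Panc02 asGM1-positive replicate 3 or Flt3L Panc02 asGM1-positive replicate 3.

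Between tumour types, within asGM1-negative cells, 3 of 32 members were called, all lower in Flt3L Panc02 tumours (9.38%, against 3.7% of all genes, 1.86% higher and 1.84% lower): A4galt, Smpd1 and Degs1. A4galt had to differ because of the filter on low counts, as described below, and adds nothing to this share. The median log2 fold change was -0.02 over members and 0.00 over all genes. Smpd1 had 86.8, 84.7 and 86.6 CPM in Flt3L Panc02 libraries, against 120.5, 135.9 and 124.5 CPM in Panc02 libraries, with no overlap. Its log2 fold change was -0.56 ± 0.12 (SE, n = 3 each; edgeR, adjusted p = 0.028). That call remained only without Flt3L Panc02 replicate 1 and ended without Panc02 replicate 1 (adjusted p = 0.0517), 2 (0.123) or 3 (0.08) or Flt3L Panc02 replicate 2 (0.115) or 3 (0.082).

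Degs1, the desaturase that makes ceramide from dihydroceramide, had 166.1, 126.7 and 137.2 CPM in Flt3L Panc02 asGM1-negative libraries, against 178.8, 223.7 and 202.0 CPM in Panc02 asGM1-negative libraries. The groups did not overlap, with a log2 fold change of -0.49 ± 0.12 (SE; edgeR, adjusted p = 0.0414). Its call ended without Panc02 replicate 2 (adjusted p = 0.162) or 3 (0.116) or Flt3L Panc02 replicate 2 (0.153) or 3 (0.121), and in 4 other settings (0.0512 to 0.0837). In asGM1-positive cells it had 163.0, 167.9 and 157.5 CPM in Flt3L Panc02 libraries, against 187.0, 202.5 and 190.1 CPM in Panc02 libraries (log2 fold change -0.25, adjusted p = 0.213).

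A4galt encodes the synthase of the globo-series glycolipid Gb3. It was at 0 in all 3 Flt3L Panc02 asGM1-negative libraries, against 1.99, 0.907 and 1.17 CPM in Panc02 asGM1-negative libraries. With a floor of 3 fragments (8.13 counts) per library, this is at least 17.7-fold lower (edgeR, adjusted p = 0.00676). A4galt passed the filter on low counts only through the Panc02 libraries, so it had to differ between tumour types. Its calls and its lack of overlap between tumour types add nothing to the counts of members. Its averaged gate call rests on few counts in Flt3L Panc02 libraries, with a group at 0, and was not taken to add to that count either. Between the gates in Panc02 tumours it was not called (log2 fold change 1.13, edgeR adjusted p = 0.632). In asGM1-positive cells it had 0.0934, 0.0836 and 0 CPM in Flt3L Panc02 libraries (17 counts in all), against 4.09, 3.38 and 1.46 CPM in Panc02 libraries. The Panc02 mean CPM was 50.4 times the Flt3L Panc02 mean (edgeR, adjusted p = 0.00839). In estimated fragments without TMM scaling it was 343 against 6, with a 95% exact Poisson interval of 2.2 to 13.1 on the 6. The ratio of these fragments then ranged from 26.2 to 156, for counting error in the Flt3L Panc02 libraries only. The sum of 8 tumour and fibroblast markers was 46.4, 44.1 and 30.6 CPM in Flt3L Panc02 asGM1-positive and 26.5, 64.1 and 65.9 CPM in Flt3L Panc02 asGM1-negative libraries. It was 183, 198 and 53.9 CPM in Panc02 asGM1-positive and 91.1, 52.3 and 60.6 CPM in Panc02 asGM1-negative libraries, and its members did not move together. The keratin genes Krt8 and Krt18, of epithelial cells, were called lower in Flt3L Panc02 in both gates. Krt8 averaged 7.66 CPM in Flt3L Panc02 and 44.1 CPM in Panc02 asGM1-positive libraries, and 6.02 CPM in Flt3L Panc02 and 22.9 CPM in Panc02 asGM1-negative libraries (log2 fold changes -2.52 ± 0.37 and -1.92 ± 0.36, SE; edgeR, adjusted p = 0.00579 and 0.0175). Krt18 had log2 fold changes of -3.00 in asGM1-positive cells (adjusted p = 0.00497) and -2.43 in asGM1-negative cells (adjusted p = 0.00844). Epcam, another epithelial gene, was called higher in both gates (1.06 in asGM1-positive, adjusted p = 0.0148, and 1.04 in asGM1-negative cells, adjusted p = 0.0192), and no collagen gene of the list was called. The part of these cells in the A4galt result was not tested.

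In all, 12 members did not overlap between tumour types in asGM1-negative cells (4 higher, 8 lower, 37.5%), against 26.6% of all genes (13.8% higher, 12.9% lower). A4galt is among the lower ones and adds nothing to the count. Of the 8 ceramide synthesis genes 4 were lower in every Flt3L Panc02 library and 2 higher. Beside Degs1, Cers5, Sptlc1 and Sptlc2 lay lower, at log2 fold changes of -0.28, -0.25 and -0.12, and Cers4 and Cers6 lay higher, at 0.31 and 0.15. Degs1 alone of these 6 passed the test. Sgms1 (0.63, edgeR adjusted p = 0.129) and Psap (0.59, adjusted p = 0.115) lay higher without a call.

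Within asGM1-positive cells 3 of 32 members were called between tumour types (1 higher, 2 lower, 9.38%), against 6.25% of all genes (2.05% higher, 4.2% lower). Cers4, a ceramide synthase, was higher in Flt3L Panc02 tumours, and Asah1, the lysosomal acid ceramidase, and A4galt were lower. Here too A4galt had to differ because of the filter and adds nothing to the share. Cers4 had 80.6, 89.9 and 91.4 CPM in Flt3L Panc02 libraries, against 59.9, 40.4 and 57.6 CPM in Panc02 libraries. No library overlapped, at a log2 fold change of 0.73 ± 0.15 (SE, n = 3 each; edgeR, adjusted p = 0.0193). The call ended without Panc02 replicate 2 (adjusted p = 0.0576) or Flt3L Panc02 replicate 2 (0.074) or 3 (0.0663). In asGM1-negative cells Cers4 had 75.3, 72.6 and 75.1 CPM in Flt3L Panc02 libraries, against 63.4, 50.7 and 65.4 CPM in Panc02 libraries. These did not overlap either, at a log2 fold change of 0.31 ± 0.15 (SE; edgeR, adjusted p = 0.262).

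Asah1 had 49.6, 45.6 and 38.7 CPM in Flt3L Panc02 asGM1-positive libraries, against 80.5, 74.2 and 57.6 CPM in Panc02 asGM1-positive libraries. Again the groups stood apart, with a log2 fold change of -0.67 ± 0.14 (SE; edgeR, adjusted p = 0.024). It lost the call without Panc02 replicate 1 (adjusted p = 0.102) or 2 (0.0944) or Flt3L Panc02 replicate 2 (0.081) or 3 (0.1). In asGM1-negative cells Asah1 had 53.6, 48.9 and 63.1 CPM in Flt3L Panc02 libraries, against 62.0, 58.5 and 61.1 CPM in Panc02 libraries. These overlapped (log2 fold change -0.13 ± 0.14, SE; edgeR, adjusted p = 0.671). In a fit of the 6 compared libraries alone A4galt, Asah1 and Cers4 all missed the threshold (adjusted p = 0.0507, 0.0723 and 0.0631). Macrophage and monocyte markers were 695 to 948 CPM in Flt3L Panc02 and 897 to 3286 CPM in Panc02 asGM1-positive libraries, and their part in the Asah1 result was not tested.

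Further members stood near the threshold in asGM1-positive cells. Acer3 had 6.69, 5.27 and 6.28 CPM in Flt3L Panc02 asGM1-positive libraries, against 11.3, 10.1 and 7.57 CPM in Panc02 asGM1-positive libraries (log2 fold change -0.67 ± 0.18, SE; edgeR, adjusted p = 0.0526). The Ormdl regulators, which restrain serine palmitoyltransferase, had positive log2 fold changes of 0.39 for Ormdl1 (adjusted p = 0.0717) and 0.66 for Ormdl3 (0.0813), neither called, and 0.06 for Ormdl2 (0.895), whose libraries overlapped. Sgms2 rests on few counts and was not called. It had 0.228, 0.115 and 0.122 CPM in Flt3L Panc02 and 1.51, 1.21 and 0.610 CPM in Panc02 asGM1-positive libraries. The log2 fold change was -2.83 ± 0.92 (SE, edgeR, adjusted p = 0.0872). In asGM1-negative cells it was -2.44 ± 0.92 (adjusted p = 0.157), and Sgms2 libraries did not overlap in either gate. Without Panc02 asGM1-positive replicate 3, Sgms1 was called lower (-0.66, adjusted p = 0.0431), against 0.226 with all libraries. In all, 13 members did not overlap (6 higher, 7 lower, 40.6%), against 30.7% of all genes (14.2% higher, 16.5% lower). The lower ones again include A4galt, which adds nothing to the count.

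**Figure D3:**
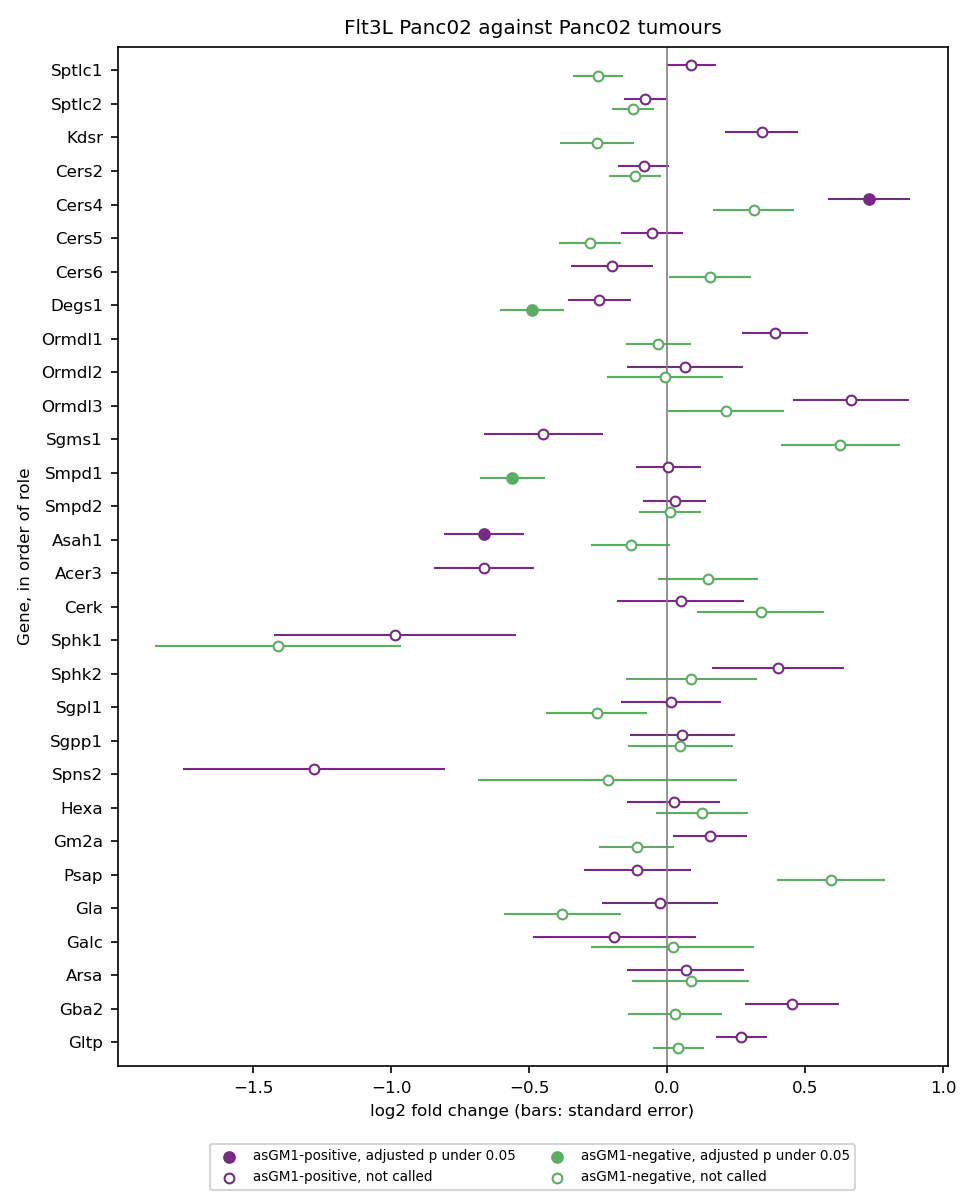
Log2 fold change of Flt3L Panc02 over Panc02 for the members in each gate, with bars of 1 SE (n = 3 libraries a group). Cers4 (0.73) and Asah1 (-0.67) in asGM1-positive cells and Smpd1 (-0.56) and Degs1 (-0.49) in asGM1-negative cells were called; A4galt, Smpd3 and Sgms2 are left out.

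Sphingosine phosphate genes showed no call in any comparison. Sphk1 lay lower in every Flt3L Panc02 asGM1-negative library than in the Panc02 ones (log2 fold change -1.41 ± 0.45, SE, edgeR, adjusted p = 0.103). In asGM1-positive cells Sphk1 (-0.99, adjusted p = 0.191) and Spns2 (-1.28, adjusted p = 0.126) overlapped between tumour types. Of the 5 genes 2 were positive and 3 negative in asGM1-negative cells, and 3 positive and 2 negative in asGM1-positive cells. Sgpl1, the lyase that degrades sphingosine 1-phosphate, had 94.3, 113.2 and 86.7 CPM in Flt3L Panc02 asGM1-positive and 58.2, 89.5 and 103 CPM in Flt3L Panc02 asGM1-negative libraries. In Panc02 libraries it had 99.6, 98.3 and 93.8 CPM in asGM1-positive and 114, 91.8 and 93.7 CPM in asGM1-negative cells. The low value in Flt3L Panc02 asGM1-negative replicate 1 was matched in Sphk2 (17.7, 40.2 and 32.9 CPM in that group) and Ormdl3 (32.1, 59.5 and 57.1 CPM), while Ormdl2 was high there (52.8, 27.8 and 33.4 CPM).

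Of the most abundant members per role, Cers2 had 258, 257 and 233 CPM in Flt3L Panc02 asGM1-positive, 263, 232 and 226 CPM in Flt3L Panc02 asGM1-negative, 264, 267 and 263 CPM in Panc02 asGM1-positive and 237, 272 and 274 CPM in Panc02 asGM1-negative libraries. Gltp had 328, 324 and 308 CPM in Flt3L Panc02 asGM1-positive and 349.6, 316 and 297 CPM in Flt3L Panc02 asGM1-negative libraries. In Panc02 tumours Gltp had 252, 256 and 289 CPM in asGM1-positive, below every other library of the table, and 305, 309 and 323 CPM in asGM1-negative libraries. Ormdl2 had 39.8, 36.9 and 53.3 CPM in Flt3L Panc02 asGM1-positive, 42.2, 43.2 and 39.1 CPM in Panc02 asGM1-positive and 34.8, 39.8 and 40.0 CPM in Panc02 asGM1-negative libraries, which overlap.

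**Figure D4:**
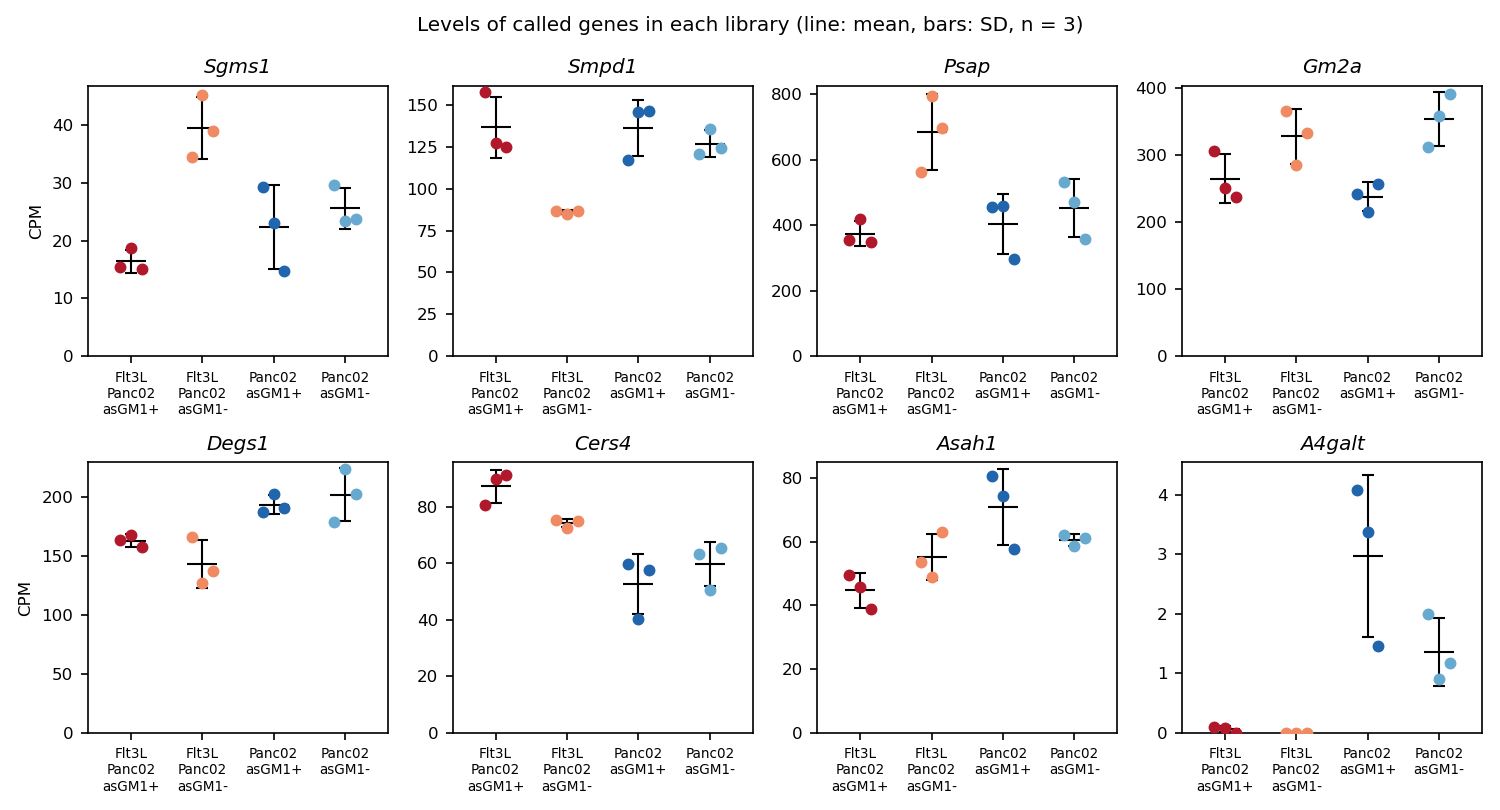
Level in CPM of the members called in at least 1 comparison, 1 point a library, with the group mean and SD. Sgms1 and Psap are highest and Smpd1 lowest in the 3 Flt3L Panc02 asGM1-negative libraries.

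The Flt3L Panc02 asGM1-negative group stood apart most often: all 3 of its libraries lay outside the range of the other 9 for 5 of 32 members (15.6%), against 10.2% of all genes. Sgms1 and Psap lay above that range, and Smpd1, Sptlc1 and Sptlc2 below it. The Flt3L Panc02 asGM1-positive group stood apart for Cers4 (above) and Acer3 (below), 6.25% against 5.24% of all genes. The Panc02 asGM1-positive group did so for Gltp (below), 3.12% against 5.12%, and the Panc02 asGM1-negative group for 0 members, against 1.07% of all genes.

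**Figure D5:**
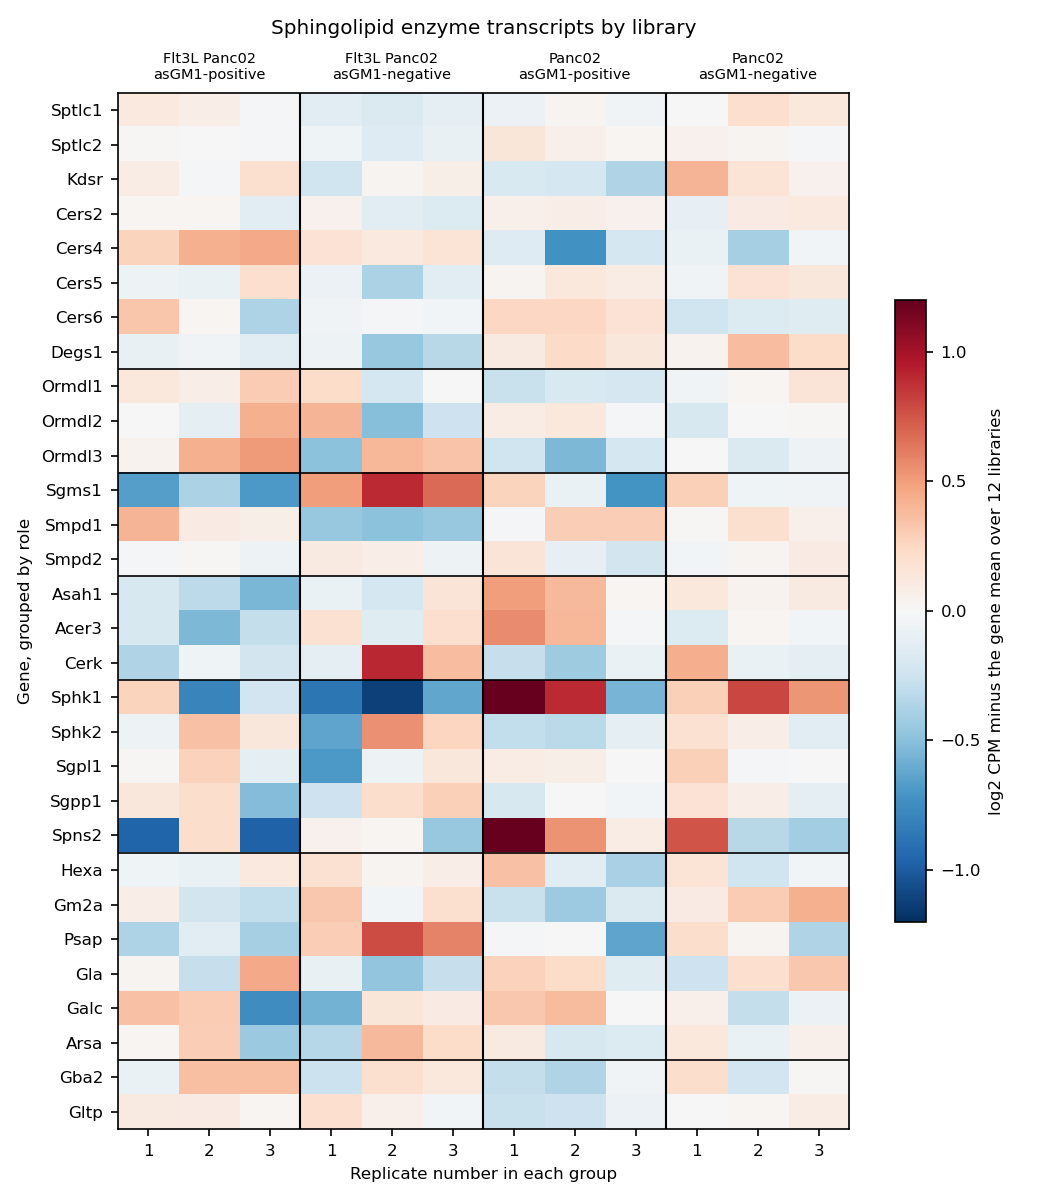
Level of each member in the 12 libraries as the log2 difference from its mean over libraries, grouped by role. The Flt3L Panc02 asGM1-negative columns are high for Sgms1 and Psap and low for Smpd1; A4galt, Sgms2 and Smpd3 are left out, and the colour range is exceeded by Sphk1 and Spns2.

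Of 56 other sphingolipid genes listed, 55 were in the table and 45 were tested. Between the gates 8 of the 45 were called in Flt3L Panc02 tumours (3 higher and 5 lower in the asGM1-positive libraries), 17.8% against 8.59% of all genes. In Panc02 tumours 1 was called, lower, which is 2.22% against 0.892% of all genes. S1pr1, the sphingosine 1-phosphate receptor of tissue exit, had 17.9, 18.1 and 12.05 CPM in Flt3L Panc02 asGM1-positive libraries, against 69.8, 114.3 and 92.3 CPM in Flt3L Panc02 asGM1-negative libraries (log2 fold change -2.52 ± 0.22, SE; edgeR, adjusted p = 0.000103). In Panc02 tumours it had 6.28, 4.64 and 5.24 CPM in asGM1-positive libraries, against 41.7, 32.4 and 32.3 CPM in asGM1-negative libraries (-2.72 ± 0.22, adjusted p = 0.000223). Npc1, of lysosomal cholesterol export (-0.69 ± 0.15, SE; edgeR, adjusted p = 0.0161), was lower in Flt3L Panc02 asGM1-positive cells. Hacd3, of fatty acid elongation (0.44 ± 0.10, adjusted p = 0.0201), and B4galt5, a lactosylceramide synthase (0.69 ± 0.17, adjusted p = 0.0281), were higher. S1pr5 was lower (-2.79 ± 0.70, adjusted p = 0.0297), at 0.114, 0.157 and 0.0776 CPM in asGM1-positive libraries, against 0.789, 0.407 and 1.25 CPM in asGM1-negative libraries.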

How the data were processed

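RNA of 12 libraries was analysed in 4 groups of 3, taken from the sample titles. Per the submitters' processing notes the tools were HISAT2 and StringTie and the build mm39. Tool versions, their order, the annotation and the use of strand are not stated there, and reads of a gene and its antisense or overlapping partner may be mixed. The authors made estimated counts per gene with these tools and deposited them as whole numbers. Peaks among small values gave about 2.71 counts a fragment (2.67 to 2.75 scored equally), an estimate. Rounding changed nothing. Floors and intervals cover counting error only. The 1542 genes without a symbol (0.145% of counts) stayed in the table.

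The model was fitted in R 4.3.3 with edgeR 4.0.16, using TMM factors, filterByExpr by group (20411 genes), 1 quasi-likelihood model of the 4 group means, Benjamini-Hochberg adjustment over all genes tested, called under 0.05. The script was tested on simulated data. Exon lengths and promoters came from GRCm38 and no coordinates of the counting build were used. Alternatives were DESeq2 1.42.0 (size factors, test), no filter, a filter of 5 CPM in 3 libraries, compared libraries only, the replicate block, counts divided by the fragment step, leaving out each library and, chosen after seeing the data, leaving out both Panc02 libraries numbered 1. Members, lists and tests were chosen with earlier results of these data known. Values in every library are given for members called in any comparison and for the most abundant per kilobase of each role, and up to 6 called other sphingolipid genes by p are named per gate comparison. Some further genes are named by their values, and a gene that the rule would name is not reported here.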

Additional observations from a re-analysis of the deposited data

How the results depend on the processing

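Of 93 recomputed counts of called members, 68 stayed within 1.5 times the reported count and 25 did not. DESeq2's test called 2 members between the gates in Panc02 (reported: 0), 7 between tumour types in asGM1-negative cells (3), 8 in asGM1-positive cells (3) and 3 in the interaction (0). The averaged gate comparison fell to 3 members with no filter and to 3 without both Panc02 libraries numbered 1 (5). Between tumour types in asGM1-positive cells, counts divided by the fragment step gave 5 and the compared libraries alone 0. Leaving out 1 library gave 2 to 4 members for the gate in Flt3L Panc02, 0 to 0 in Panc02, 1 to 5 in the averaged gate comparison, 1 to 3 between tumour types in asGM1-negative cells, 1 to 6 in asGM1-positive cells and 0 to 1 in the interaction. The cause was not tested.

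Reversed values were all uncalled log2 fold changes. Cers4 in the averaged gate comparison was -0.006 with the stricter filter and -0.005 without both libraries numbered 1, and Smpd1 between tumour types in asGM1-positive cells -0.032 and -0.095. Without 1 library, ranges were -0.14 to 0.021 for Degs1, -0.315 to 0.001 for Psap and -0.434 to 0.022 for Sgms1 between the gates in Panc02, -0.028 to 0.104 for Cers4 and -0.091 to 0.023 for Asah1 averaged, and -0.112 to 0.085 for Smpd1 between tumour types in asGM1-positive cells.

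Counts over all genes depended on the setting: 768 to 3215 in the Flt3L Panc02 gate comparison (1754), 94 to 598 in Panc02 (182), 809 to 2342 averaged (1263), 94 to 2207 between tumour types in asGM1-negative cells (756), 1 to 2979 in asGM1-positive cells (1276) and 1 to 862 in the interaction (75). In deviations from group means, same-numbered libraries of the 2 gates correlated at 0.095 to 0.284 in Panc02 and 0.022 to 0.104 in Flt3L Panc02. Differently numbered ones correlated at -0.21 to 0.057 and -0.113 to 0.051. Across tumour types same-numbered libraries correlated at -0.094 to 0.074. Across gates 6 of 6 Panc02 and 5 of 6 Flt3L Panc02 libraries correlated best with their own number, a hint from the data that numbers may pair the gates. The labels state no pairing, so the main model did not pair samples. For the gate comparisons the replicate block was the number within each tumour type. It gave 4 called members in Flt3L Panc02 (A4galt added), 0 in Panc02, 5 averaged and 0 in the interaction. For the tumour comparisons the block was the number across tumour types, where same-numbered libraries barely correlated. With it 2 members were called in asGM1-negative cells (Degs1 lost) and 3 in asGM1-positive cells. Depth limits A4galt, Sgms2 and Smpd3, which rest on few fragments.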
